A study of Mus musculus with 8 samples.

Results

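Wild-type Th17 cells were compared with wild-type Th1 cells over 19106 autosomal genes of 19938 genes measured in all, each read by the probeset with the highest mean among those with 1 gene symbol. The RNA of 8 mouse CD4+ T cell cultures was hybridised to Affymetrix arrays, each culture to its own. The series holds 4 groups of 2 arrays: Th17 and Th1 cells from wild-type C57BL/6 mice, and Th17 and Th1 cells from Tet2-/- mice of the same background. Naive cells (CD4+CD25-CD62LhighCD44low) were sorted from spleen and lymph node and activated in every group with plate-bound antibody to CD3 and soluble antibody to CD28, each at 1 µg/ml. The Th1 medium held IL-12 at 10 ng/ml, IL-2 at 30 U/ml and antibody to IL-4 at 5 µg/ml. The Th17 medium held TGF-β1 at 0.5 ng/ml, IL-6 at 10 ng/ml and antibodies to interferon-γ and to IL-4 at 5 µg/ml each. The 2 media therefore differed in several agents at once, and IL-2 was listed for the Th1 medium and antibody to interferon-γ for the Th17 medium. Any addition of IL-1β and IL-23, how long the cells were cultured, and whether the 2 arrays of a group came from separate mice are not given in the sources used here, so the p values measure the spread between these cultures.

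Helper T cells take on different programs according to the cytokines present when they are activated. IL-12 acts through STAT4 to induce T-bet, encoded by Tbx21, and T-bet drives interferon-γ, chemokines and cytotoxic genes in Th1 cells, which act against intracellular microbes. TGF-β with IL-6 acts through Smad proteins and STAT3 to induce the factors that drive IL-17 in Th17 cells, which are known for defence at mucosal surfaces and for tissue inflammation. IL-2 signalling through STAT5 counters the Th17 program, and interferon-γ counters it too.

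Between the cell types, 1633 autosomal genes passed the test (8.55% of 19106), of which 1015 were higher in Th17 cells (5.31%) and 618 were lower (3.23%). Over all chromosomes 1689 genes passed (8.47%). The test was limma's moderated test with Benjamini-Hochberg adjustment over the 19938 genes, and a gene past an adjusted p of 0.05 is called higher or lower here. The difference was at least 2-fold for 240 called genes, 146 of them higher (0.764%) and 94 lower (0.492%), and at least 4-fold for 17 higher and 18 lower genes. All 1633 called genes had wild-type arrays that did not overlap between cell types, as did 52.0% of all autosomal genes, so non-overlap alone says little with 2 arrays against 2. The arrays of 1 group correlated across genes at 0.993 (Th17) and 0.990 (Th1), and Th17 arrays with Th1 arrays at 0.977 to 0.981.

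Dim and expressed genes moved apart as groups. The 1021 autosomal olfactory receptor genes, which T cells are not known to use, read lower in Th17 cells in 95.3% of cases, with a median log2 difference of -0.28, and 130 of them were called lower and 1 higher. Their 95th percentile on each array (6.85 to 6.92 log2 units in Th1 cells and up to 6.65 in Th17 cells) is used here as the bound under which a gene's level was not shown. Among the 8942 genes under this bound on all 4 arrays, 44 were called higher and 283 lower, and among the 10164 others 971 were called higher and 335 lower. Of the called genes 62.2% were higher in Th17 cells as deposited, 51.1% after quantile normalization, 51.2% after cyclic loess normalization and 73.7% with dim genes left out. The part of this shift in any one dim gene's call was not tested. Where a group lay under its bound on both arrays, the lower limit is given below as at least N-fold: the mean of the brighter group against the mean of the dimmer group's bounds or its own values, whichever was higher. The log2 differences themselves are fitted values and not limits, and no limit can be given where both groups lay under the bound.

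**Figure D1:**
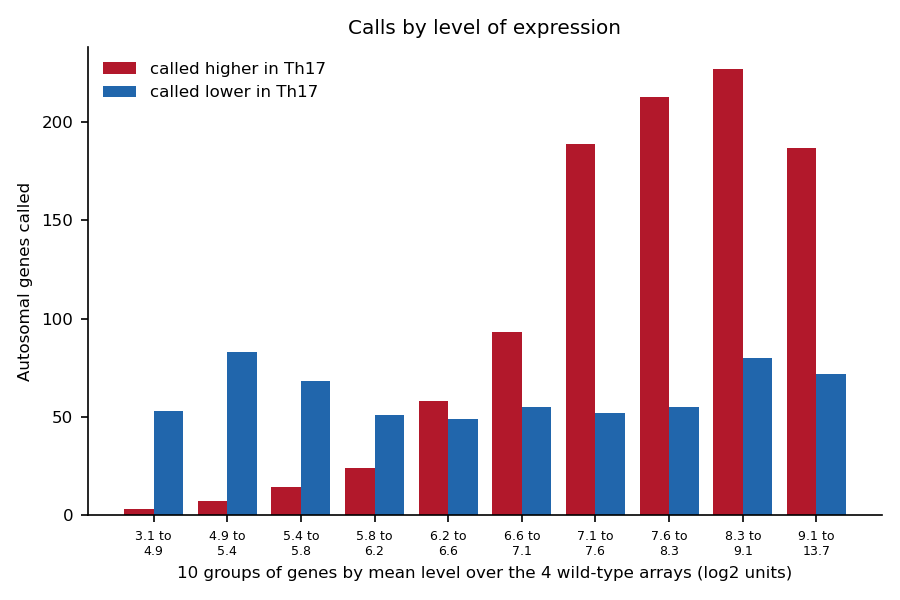
Number of autosomal genes called higher (red) or lower (blue) in wild-type Th17 than Th1 cells, in 10 equal groups of genes by mean level over the 4 wild-type arrays (log2 units). In the group of lowest level 3 genes were called higher and 53 lower, and in the group from 8.28 to 9.11 log2 units 227 were called higher and 80 lower.

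One Th17 array stood apart from the other 3 wild-type arrays in sex-linked genes, which are outside the 19106 genes. Its Xist level was 10.1, against 4.83 to 5.20 on the other wild-type arrays, and its Y-linked genes averaged 7.82, against 7.97 to 8.80. Without this array (Th17 replicate 2), 650 autosomal genes were called, 401 higher and 249 lower, and 248 differed at least 2-fold. Without Th1 replicate 1, 982 were called, 529 higher and 453 lower.

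**Figure D2:**
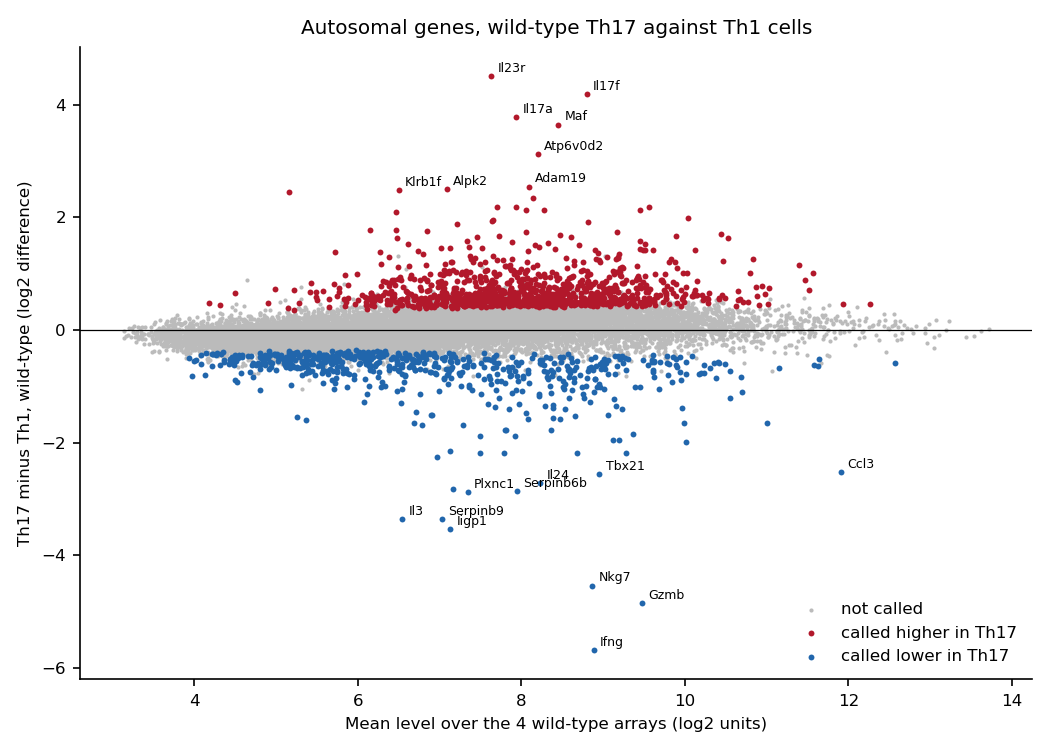
Log2 difference (Th17 minus Th1, wild-type) against the mean level over the 4 wild-type arrays for 19106 autosomal genes. Called genes are red (1015 higher in Th17) or blue (618 lower), and named genes are among the 15 with the largest differences in each direction. Ifng, Gzmb and Nkg7 lie lowest and Il23r, Il17f and Il17a highest.

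The lineage factors that were called split by cell type. Of 13 Th17 lineage factors measured on autosomes, 5 were called higher in Th17 cells and none lower, with a median log2 difference of 0.19 against -0.01 over all autosomal genes. Under quantile normalization the median was 0.07, with 5 called higher and 1 lower, and under cyclic loess normalization it was 0.05. Maf, a leucine zipper factor that binds Il21 and Il10, read 10.0 and 10.5 on the Th17 arrays and 6.58 and 6.67 on the Th1 arrays. Both Th1 values lay under the bound, and Maf was at least 10.5-fold higher in Th17 cells (log2 difference 3.65, SE 0.24, adjusted p = 1.48e-06, limma). Rora, a ROR family receptor, read 9.22 and 9.47 in Th17 and 7.13 and 7.29 in Th1 cells, 4.39-fold higher (adjusted p = 1.21e-06, limma). The groups were well separated for both genes. Ikzf3, the Ikaros family repressor Aiolos, read 9.35 and 9.28 against 7.82 and 7.44, and Ahr, the aryl hydrocarbon receptor, read 8.46 and 8.65 against 7.14 and 6.64. Runx1, a Runt family factor, read 9.11 and 9.13 against 8.11 and 8.19. These 3 were 3.21-fold, 3.17-fold and 1.96-fold higher in Th17 cells. RNA came from whole cultures, so fewer cells with a program and less RNA per cell cannot be told apart here.

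The other 8 of the 13 Th17 lineage factors did not pass the test. Batf read 7.88 and 8.17 in Th17 against 7.93 and 8.08 in Th1 cells, Irf4 11.4 and 11.5 against 11.3 and 11.4, and Stat3 9.93 and 10.2 against 10.3 and 10.1, with log2 differences of 0.01 (SE 0.13), 0.09 (SE 0.13) and -0.11 (SE 0.15). The arrays of all 3 overlapped between cell types. Hif1a differed by 0.09, Fosl2 by 0.11, Etv6 by 0.19, Nfkbiz by 0.45 and Bhlhe40 by -0.30, and none of these 5 passed the test.

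Of 8 Th1 lineage factors, 5 were called lower in Th17 cells and none higher, with a median of -0.79. Tbx21, the gene of T-bet, read 10.3 and 10.2 in Th1 and 7.46 and 7.89 in Th17 cells, 5.89-fold lower in Th17 cells (log2 difference -2.56, SE 0.16, adjusted p = 1.13e-06, limma). Eomes, the related T-box factor, read 8.23 and 8.26 in Th1 and 6.81 and 7.06 in Th17 cells, a 2.47-fold difference. Both T-box genes were thus lower in Th17 cells, and Tbx21 read above the bound there. Runx3, a partner of T-bet, differed by -0.87 and Hlx, a homeobox factor of Th1 cells, by -0.72 at levels under the bound on all 4 arrays. Stat4, which transmits the IL-12 signal, read 10.0 and 9.92 in Th17 against 9.94 and 10.2 in Th1 cells and did not pass the test (-0.09, SE 0.14), and Twist1 differed by -0.43 with adjusted p = 0.0741 (limma). Irf1, an interferon-induced factor, differed by -1.05 on its brighter probeset and by 0.09 on its other probeset. With the mean of its probesets, or without Th1 replicate 1, Irf1 did not pass.

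**Figure D3:**
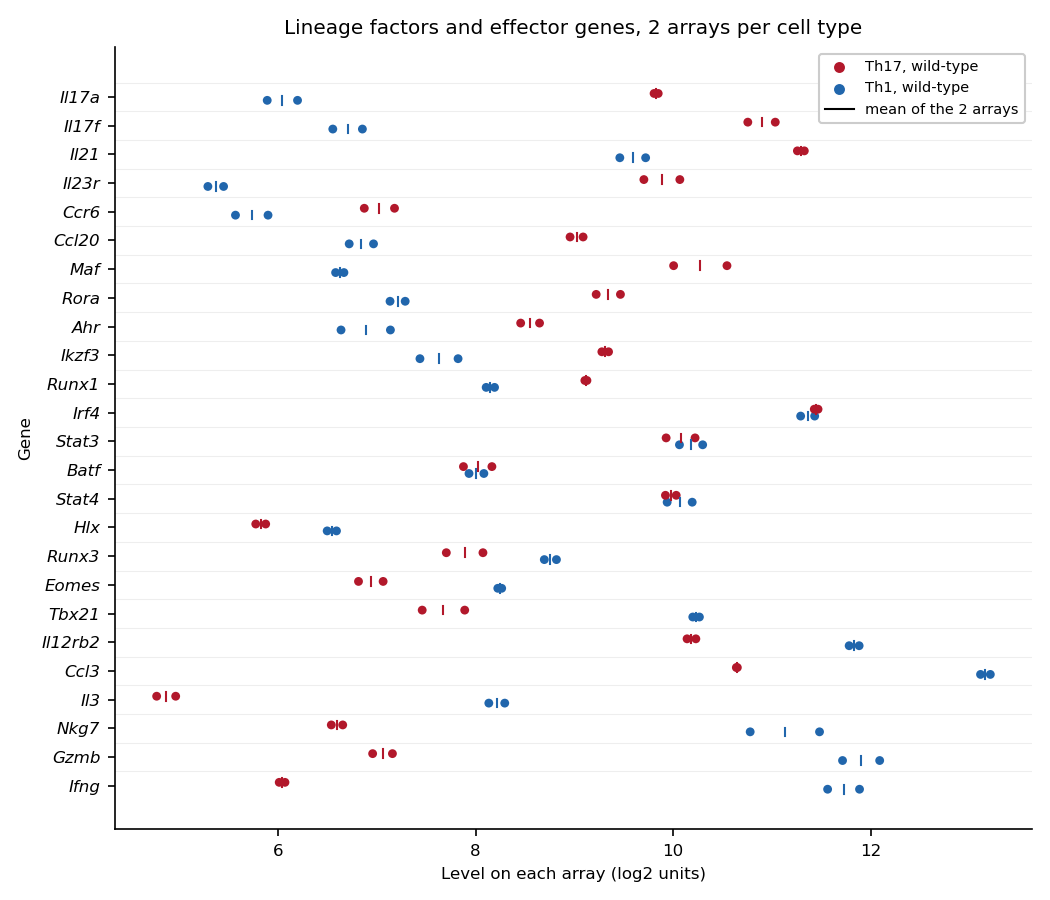
Level (log2 units) of lineage factors and effector genes on each wild-type array, with Th17 in red, Th1 in blue and a bar at the mean of the 2 arrays of a group. Genes of the Th17 program at the top lie to the right in Th17 cells, Irf4, Stat3, Batf and Stat4 lie together, and genes of the Th1 program at the bottom lie to the right in Th1 cells, up to 13.2 for Ccl3.

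Among the effector genes of Th17 cells, 9 of 14 were called higher in Th17 cells and 1 lower, with a median of 0.77. Il23r, a subunit of the IL-23 receptor, read 10.1 and 9.70 on the Th17 arrays and 5.29 and 5.45 on the Th1 arrays, at least 8.00-fold higher (log2 difference 4.52, SE 0.15, adjusted p = 6.53e-09, limma). Il17f read 10.8 and 11.0 against 6.55 and 6.85, at least 16.1-fold higher (4.19, SE 0.16). Il17a read 9.81 and 9.85 against 5.89 and 6.20, at least 7.69-fold higher (3.78, SE 0.16). All 3 lay under the bound on both Th1 arrays, so their size is shown only as far as these lower limits. The promoters of Il17a and Il17f, which lie next to each other on chromosome 1, and of Ifng are shown because these genes encode the signature cytokines of the 2 cell types. The sequences are those of RefSeq on GRCm38.p6, on the strand of the gene, from 250 bases before to 50 after the start. For Il17a (chr1:20730655-20730954, + strand) and Il17f (chr1:20784221-20784520, - strand), capitals mark the ROR monomer motif AGGTCA or its reverse complement. For Ifng (chr10:118440796-118441095, + strand), capitals mark a GAS motif, TTCNNNGAA, the site class of STAT dimers. The Ifng window also holds the reverse complement of the ROR motif, left unmarked (in ggctgacctaga, toward its end). The ROR motif is thus in all 3 windows and does not set Il17a and Il17f apart from Ifng.
Il17a: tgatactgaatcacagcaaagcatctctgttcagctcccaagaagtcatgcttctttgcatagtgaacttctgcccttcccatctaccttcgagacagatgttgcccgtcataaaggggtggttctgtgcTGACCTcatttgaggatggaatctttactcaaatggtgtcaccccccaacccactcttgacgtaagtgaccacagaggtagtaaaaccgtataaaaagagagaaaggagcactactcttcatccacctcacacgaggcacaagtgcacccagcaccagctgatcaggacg
Il17f: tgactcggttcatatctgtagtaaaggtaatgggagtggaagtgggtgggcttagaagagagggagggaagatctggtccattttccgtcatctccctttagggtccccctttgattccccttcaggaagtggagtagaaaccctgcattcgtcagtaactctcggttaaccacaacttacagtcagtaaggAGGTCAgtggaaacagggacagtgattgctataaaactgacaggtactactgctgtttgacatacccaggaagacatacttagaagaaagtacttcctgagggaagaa
Ifng: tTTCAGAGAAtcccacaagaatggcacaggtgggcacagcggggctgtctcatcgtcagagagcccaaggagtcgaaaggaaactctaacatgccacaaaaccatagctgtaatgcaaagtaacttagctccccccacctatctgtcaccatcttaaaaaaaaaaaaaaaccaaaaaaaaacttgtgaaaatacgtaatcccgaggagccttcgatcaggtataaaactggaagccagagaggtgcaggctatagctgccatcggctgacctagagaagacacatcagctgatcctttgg

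The capitals begin 120 bases before the start in Il17a, where the motif is on the other strand, and 58 bases before it in Il17f. The ROR motif is common: it was in 14.3% of the 18383 promoters of 14959 autosomal genes, in 16.2% of 167 promoters of 113 genes at least 2-fold higher in Th17 cells, and in 14.6% of 82 promoters of 62 genes at least 2-fold lower. A match is a description of the letters in this window and does not show binding.

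Il21, a cytokine that acts back on Th17 cells through STAT3, was already high in Th1 cells: it read 9.72 and 9.46 there and 11.3 on both Th17 arrays, 3.25-fold higher. Ccl20, the ligand of Ccr6, read 9.09 and 8.96 in Th17 and 6.72 and 6.97 in Th1 cells, 4.53-fold higher, and Ccr6 itself 6.87 and 7.18 against 5.57 and 5.90. Ligand and receptor were thus both higher in Th17 cells, with Ccr6 dim (at least 1.10-fold). Tmem176b, a membrane protein, and Ltb4r1, the leukotriene B4 receptor, differed by 0.80 (at least 1.33-fold) and 0.74. Il10 read 4.54 and 4.53 against 4.12 and 4.06, which is under the bound on all arrays, so its call (0.44) shows no expression, and it was lost without any 1 of the 4 wild-type arrays. Gpr65, a proton-sensing receptor, was lower in Th17 cells by 0.59, a call also lost without any 1 of these arrays. Il9 (-0.01), Il1rn (-0.19), Tmem176a (0.40) and Furin (0.54) did not pass, and Il22 and Il1r1 were not analysed here.

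Ifng, Gzmb and Nkg7, effector genes of Th1 cells, had the largest differences toward Th1 cells. Of 19 such genes measured on autosomes, 11 were called lower in Th17 cells and none higher, with a median of -1.65. Ifng, the signature cytokine of Th1 cells, read 11.6 and 11.9 in Th1 and 6.07 and 6.01 in Th17 cells, at least 35.6-fold lower (log2 difference -5.68, SE 0.14, adjusted p = 2.35e-10, limma). Gzmb, the serine protease granzyme B, read 11.7 and 12.1 against 6.96 and 7.16, 28.7-fold lower. Nkg7, a granule membrane protein, read 10.8 and 11.5 against 6.66 and 6.54, 23.2-fold lower. These 3 transcripts were bright in Th1 cells. In Th17 cells Ifng lay under the bound on both arrays, Nkg7 lay close to it and Gzmb lay above it on both arrays. Il3, a cytokine for myeloid progenitors, read 8.13 and 8.30 in Th1 and 4.96 and 4.77 in Th17 cells, at least 3.12-fold lower. Serpinb9, the inhibitor of granzyme B, read 8.63 and 8.78 against 5.31 and 5.38, at least 4.38-fold lower. Il12rb2, the inducible chain of the IL-12 receptor, was 3.13-fold lower, yet read 10.1 and 10.2 in Th17 cells, well above the bound. Fasl, the death ligand, was at least 2.94-fold lower in Th17 cells, and Havcr2, the inhibitory receptor Tim-3, differed by -1.05 at levels under the bound on all arrays.

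Other genes of Th1 cells did not pass the test. Tnf read 10.6 and 10.7 in Th17 and 10.8 and 10.9 in Th1 cells (-0.14, SE 0.15), Lta differed by -0.40 and Xcl1 by -0.53, and the IL-18 receptor chains Il18r1 and Il18rap by 0.29 and -0.38. None of these 5 passed. The NK-type receptor Klrd1 differed by 0.61 and Klrc1 by 0.15, and the chemokine receptor Cxcr6 by 0.85 with adjusted p = 0.0652 (limma), all toward Th17 cells and none past the test. Among the alternatives, Klrd1 was called higher in 5 of 23 and Cxcr6 in 7 of 24. Cxcr3 lies on chromosome X, and Ly6c2 was not analysed here.

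Of 20 other helper cell cytokines, 2 were called higher and 2 lower in Th17 cells. Lif, an IL-6 family cytokine, read 9.44 and 9.65 against 8.69 and 8.51 (0.94), and Tgfb3, a TGF-β linked to Th17 cells, 6.49 and 6.75 against 6.08 and 5.89 (0.63). Il24, an IL-10 family cytokine, read 9.59 and 9.58 in Th1 and 6.77 and 6.99 in Th17 cells, 6.54-fold lower, and Il3 is described above. Thus Il24 moved with the Th1 genes although it is listed as a Th2 cytokine, while Il4 (-0.17), Il5 (-0.06) and Il13 (-0.11) did not pass. Csf2, the gene of GM-CSF, read 7.05 and 7.08 in Th17 against 6.89 and 7.56 in Th1 cells (-0.16, SE 0.18), and Il2 6.93 and 7.26 against 7.16 and 6.70 (0.16, SE 0.17). Both had arrays that overlapped between cell types. Tgfb3 lay under the bound in Th1 cells and close to it in Th17 cells, and its call was lost without any 1 of the 4 wild-type arrays.

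Cytokine receptors changed in both directions. Of 34 autosomal cytokine receptor genes, 7 were called higher and 3 lower in Th17 cells. Beside Il23r, Ifngr2, the signalling chain of the interferon-γ receptor, read 9.77 and 9.88 in Th17 and 8.63 and 8.45 in Th1 cells, 2.44-fold higher, while its partner Ifngr1 differed by 0.09 (SE 0.13). Tgfbr1 read 8.88 and 8.67 against 7.45 and 7.77, 2.24-fold higher, and Il27ra 9.65 and 9.93 against 8.61 and 8.71, 2.19-fold higher. Thus a chain of the interferon-γ receptor and a chain of the TGF-β receptor were both brighter in Th17 cells. Tgfbr2 (0.65), Tgfbr3 (0.66) and Il6st, the shared signal chain gp130 (0.51), were also called higher. Those 3 calls were lost without Th17 replicate 2 or without Th1 replicate 1, and Il6st also under quantile normalization. Il15ra was lower in Th17 cells by 0.93 on the log2 scale, and Il21r by 0.58, a call lost in 13 of 24 alternatives. Il2ra read 12.5 and 12.5 against 12.5 and 12.4 (0.02, SE 0.12), and Il2rb, Il7r, Il6ra and Il12rb1 did not pass either. Without Th17 replicate 2, 4 receptors were called higher and 3 lower, and without Th1 replicate 1, 4 and 2.

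Among 22 chemokine genes only Ccl20 was called higher in Th17 cells, and 4 were called lower. Ccl3 was the brightest, at 13.1 and 13.2 in Th1 and 10.7 and 10.6 in Th17 cells, 5.72-fold lower. Ccl4 read 9.45 and 10.1 against 7.67 and 7.53, 4.51-fold lower, and Ccl5 10.1 and 10.3 against 8.19 and 8.24, 3.89-fold lower. These 3 inflammatory chemokines were lower in Th17 cells but all stayed above the bound there. Ccl1 was at least 1.52-fold lower, a call lost without either Th17 array or without Th1 replicate 2. Of the 22 genes, 13 lay under the bound on all 4 arrays.

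Of 18 autosomal chemokine and trafficking receptors, 4 were called higher and 2 lower. Ccr4 read 11.3 and 11.4 in Th17 and 9.66 and 9.74 in Th1 cells, 3.12-fold higher. Ccr6 is given above, Cxcr4 read 8.50 and 8.48 against 7.45 and 7.47, 2.04-fold higher, and S1pr1, the receptor for lymph node exit, 9.28 and 9.02 against 8.21 and 8.38, 1.81-fold higher. Ccr7 (-0.52) and Ccr10 (-0.41) were called lower, but neither call held without either Th17 array or without Th1 replicate 1, and Ccr10 lay under the bound on all 4 arrays. Ccr2 had a difference of 1.31 that did not pass (SE 0.44, adjusted p = 0.0854, limma), although its arrays did not overlap, and it lay under the bound in Th1 cells. It read 7.01 and 7.27 in Th17 and 5.72 and 5.94 in Th1 cells. The SE also takes in the Tet2-/- Th17 arrays, which read 6.02 and 8.12. Ccr2 was called higher in 6 of 24 alternatives.

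Genes induced by interferon-γ were lower in Th17 cells. The Th17 medium held antibody to that cytokine, but the media also differed in IL-12, IL-2, TGF-β1 and IL-6. The part of the antibody cannot be told apart from that of the other agents here. Of 24 autosomal genes of the interferon-γ response and antigen presentation, 16 were called lower and none higher, with a median of -0.69. With 1 wild-type array left out, at least 11 were called lower, the fewest without Th17 replicate 1, where 1 was called higher. Iigp1, an immunity-related GTPase, read 9.04 and 8.75 in Th1 and 5.43 and 5.30 in Th17 cells, at least 4.99-fold lower. Gbp4, a guanylate-binding GTPase, read 10.4 and 10.3 against 7.98 and 8.38, 4.53-fold lower. Irf8 read 10.8 and 11.2 against 8.91 and 9.14, 3.98-fold lower, and Psmb9, an immunoproteasome subunit, 9.48 on both Th1 arrays against 8.18 and 8.22, 2.43-fold lower. The arrays of these 4 genes were far apart between cell types. Of 24 genes of the type I interferon response, 9 were called lower and none higher, with a median of -0.33. Usp18, which removes ISG15 from proteins, read 8.80 and 8.95 in Th1 and 6.66 and 6.75 in Th17 cells, 4.51-fold lower. Oas3, Ifih1 and Eif2ak2, sensors of viral RNA, differed by -1.07, -0.99 and -0.96. Type I calls numbered 5 without Th17 replicate 1 and 5 without Th1 replicate 1. The lists share inducers, and GBP genes are near-copies of each other, so probes may read more than 1 of them.

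Of 12 motifs searched on both strands, GAS and the core of the interferon-stimulated response element (ISRE: TTTC, 2 bases of any kind, TTTC) are described with the interferon response. GAS was in 7.69% of all promoters, 7.78% of those of genes at least 2-fold higher in Th17 cells and 18.3% of those of genes at least 2-fold lower. The ISRE core was in 3.29%, 4.79% and 14.6%, and the AP-1 motif TGANTCA in 6.88%, 8.38% and 18.3%. The T-box motif TCACACCT was in 1.10%, 1.20% and 3.66%, and the SMAD motif CAGACA in 18.2%, 16.8% and 17.1%. A palindrome of STAT3 was in 0.136%, 0.0% and 2.44%, the last being 2 of 82 promoters, and an NF-κB motif in 0.163%, 1.80% and 0.0%, the middle value being 3 of 167. The others, longer forms of the ROR and AP-1 motifs and both motifs of MAF, were each in at most 9.76% of any set. These are descriptions without a test, and a gene with several starts counts once per start. Shown are Irf1 (chr11:53769764-53770063, + strand), Gbp7 (chr3:142530086-142530385, + strand) and Irgm1 (chr11:48871371-48871670, - strand), chosen after their values were seen, with GAS and ISRE core matches in capitals.
Irf1: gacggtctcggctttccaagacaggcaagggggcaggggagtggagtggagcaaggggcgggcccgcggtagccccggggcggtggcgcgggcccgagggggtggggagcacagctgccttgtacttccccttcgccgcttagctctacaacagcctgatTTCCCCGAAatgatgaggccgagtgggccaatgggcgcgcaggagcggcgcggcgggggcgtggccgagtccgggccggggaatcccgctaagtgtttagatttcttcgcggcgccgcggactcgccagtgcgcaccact
Gbp7: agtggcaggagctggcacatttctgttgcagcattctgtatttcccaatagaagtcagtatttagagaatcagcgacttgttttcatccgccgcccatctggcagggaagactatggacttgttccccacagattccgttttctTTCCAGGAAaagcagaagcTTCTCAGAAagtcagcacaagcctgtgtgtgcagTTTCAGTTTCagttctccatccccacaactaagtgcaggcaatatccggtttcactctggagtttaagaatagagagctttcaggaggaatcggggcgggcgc
Irgm1: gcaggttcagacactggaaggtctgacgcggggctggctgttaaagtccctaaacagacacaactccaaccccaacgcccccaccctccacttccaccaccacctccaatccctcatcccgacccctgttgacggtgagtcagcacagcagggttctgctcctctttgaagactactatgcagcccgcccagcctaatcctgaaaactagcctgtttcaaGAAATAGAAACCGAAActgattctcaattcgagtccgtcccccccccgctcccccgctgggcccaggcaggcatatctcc

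Irf1 has 1 GAS match beginning 90 bases before the start, Gbp7 has 2 GAS matches at 106 and 87 bases and an ISRE core at 53 bases before it, and Irgm1 has 2 overlapping ISRE cores on the other strand, at 30 and 24 bases. Gbp7, a guanylate-binding GTPase, read 9.16 and 8.75 in Th1 and 7.48 and 7.76 in Th17 cells (-1.34). Irgm1, an immunity-related GTPase, read 9.14 and 8.95 against 7.57 and 7.87 (-1.33). Both were called lower.

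**Figure D4:**
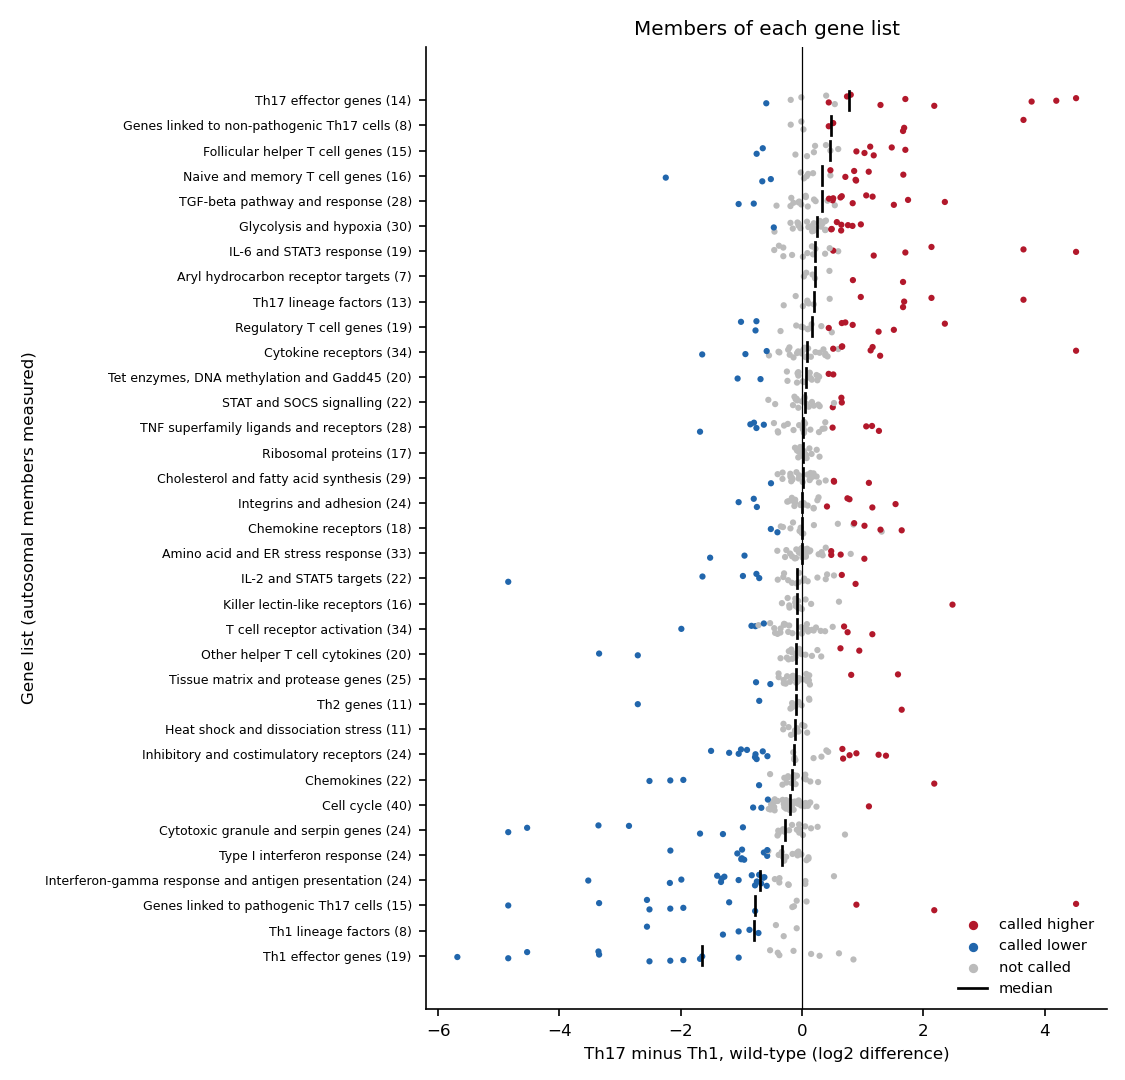
Log2 difference (Th17 minus Th1, wild-type) of each autosomal member of the gene lists other than cell type markers and housekeeping genes, ordered by the median of the list (black bar). Members called higher are red and called lower are blue. The Th17 effector list has a median of 0.77 and the Th1 effector list -1.65, and lists near the middle hold members called in both directions.

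Of 24 cytotoxic granule and serpin genes, 7 were called lower in Th17 cells and none higher, among them Gzmb, Nkg7, Serpinb9 and Serpinb6b, a granule protease inhibitor that read 9.49 and 9.26 in Th1 and 6.45 and 6.59 in Th17 cells. Prf1, the pore protein perforin, read 7.61 and 8.07 against 6.75 and 6.98 (-0.98). Of the list, 8 genes lay under the bound on all 4 arrays, which leaves their levels not shown. Markers of NK cells (6 of 6 under the bound) and CD8 T cells (2 of 2) were not shown either, and none was called.

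TGF-β itself was in the Th17 medium, and its part cannot be told apart from that of the other agents here. Of 28 genes of its pathway, 11 were called higher, 2 lower and 15 neither, with a median of 0.32 that was 0.20 under quantile and 0.18 under cyclic loess normalization. Nt5e, the ectoenzyme CD73, read 9.24 and 9.40 in Th17 and 6.84 and 7.10 in Th1 cells, 5.11-fold higher. Smad3, which transmits the signal, read 9.93 and 10.2 against 8.14 and 8.46, 3.36-fold higher, and Gpr83, a receptor induced by TGF-β, 8.88 and 8.96 against 7.44 and 7.38, 2.85-fold higher. Tgfbr1 is given above. Both chains of the integrin that activates latent TGF-β went the other way: Itgav differed by -1.05 and Itgb8 by -0.80. Without Th17 replicate 2, 5 members were called higher and 1 lower, and without replicate 1 of Th17 or of Th1 cells 7 were called higher and 2 lower. The call of Itgb8 was among those lost.

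Of 19 genes of the IL-6 and STAT3 response, 6 were called higher and none lower, with a median of 0.22. Il23r, Maf, Rora and Il21 led them. Bcl6 is a transcriptional repressor that promotes the follicular helper program. It read 7.49 and 7.82 in Th17 and 6.45 and 6.51 in Th1 cells, at least 1.71-fold higher. Bcl6's counterpart Prdm1, the repressor Blimp-1, read 7.48 and 7.53 in Th1 and 5.89 and 5.84 in Th17 cells, at least 1.91-fold lower. The pair therefore ran in opposite directions. Under quantile normalization 5 members were called higher and 2 lower. Prdm1 is also a target of IL-2 and STAT5, a list in which 5 of 22 genes were called lower and 2 higher, with Gzmb, Prdm1 and Prf1 among the lower and Bcl2, a survival gene (0.88), among the higher. Among 22 STAT and SOCS genes, 3 were called higher, Stat5b (0.65), Socs2 (0.65) and Jak1 (0.51), and 0 without Th17 replicate 2. The called share of this list was 13.6%, against 16.1% of all autosomal genes at a like level (8.28 to 9.11 log2 units). The count is thus no more than that of genes at this level. Under quantile normalization 1 was called higher and 2 lower, and the median went from 0.04 to -0.09. The calls of Socs2 and Jak1 were lost in 12 and 11 of 24 alternatives.

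Programs of other T cell subsets were mixed. Of 15 autosomal follicular helper genes, 6 were called higher and 2 lower, with a median of 0.47. Pou2af1, a coactivator of B cells and follicular helper cells, read 8.97 and 8.94 in Th17 and 7.58 and 7.38 in Th1 cells, 2.78-fold higher, and Slamf6 8.62 and 8.78 against 7.54 and 7.62, 2.18-fold higher. Cd200 (-0.75) and Pdcd1 (-0.65), the gene of PD-1, were called lower, the first lost without Th17 replicate 2 and the second without replicate 1 of either cell type. Of 19 autosomal regulatory T cell genes, 7 were called higher and 3 lower, and 4 and 3 without replicate 2 of either cell type. Ctla4, the inhibitory receptor, read 11.4 and 11.5 in Th17 and 10.4 and 9.98 in Th1 cells, 2.40-fold higher. The ectoenzymes that make adenosine moved apart, with Nt5e higher and Entpd1, the enzyme CD39, lower by 0.77 on the log2 scale at levels under the bound. Tigit was lower too (9.45 and 9.40 in Th1 against 8.30 and 8.53 in Th17 cells). The Th2 list, given next, had 27.3% called, against 12.6% of all autosomal genes at 7.08 to 7.64 log2 units. Of 11 Th2 genes, 1 was called higher, Ccr4, and 2 lower, Il24 and the factor Nfil3 (-0.71), the latter not without Th17 replicate 1.

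Of 16 naive and memory genes, 7 were called higher and 3 lower, and 7 and 1 without Th17 replicate 1. Igfbp4 read 10.4 and 11.0 in Th17 and 8.99 and 9.13 in Th1 cells, 3.18-fold higher, and Lef1, a factor of naive cells, 10.4 and 10.5 against 9.26 and 9.44, 2.14-fold higher. Dapl1 went the other way and was spread within Th1 cells, at 8.51 and 7.68, against 5.91 and 5.78 in Th17 cells (at least 2.87-fold lower). Among 24 inhibitory and costimulatory receptors and ligands, 6 were called higher and 10 lower. Icos (0.90), Cd96 (0.78) and Ctla4 were higher, and Lag3 (-1.20), Tigit (-1.01) and Pdcd1lg2, a ligand of PD-1 (at least 2.11-fold), were lower. Without Th17 replicate 2 these counts were 3 and 7. Cd86, a ligand of CD28, read 6.00 and 6.81 in Th17 and 5.11 and 4.94 in Th1 cells, a dim gene whose call was lost without that array or without Th1 replicate 2.

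Of 28 autosomal TNF superfamily genes, 4 were called higher and 5 lower, and 3 and 3 without Th17 replicate 2. The called share was 32.1%, against 16.1% of all autosomal genes at 8.28 to 9.11 log2 units. Ltb, lymphotoxin-β, read 9.41 and 9.68 in Th17 and 8.28 on both Th1 arrays, 2.41-fold higher, and Tnfrsf26 and Tnfrsf25 were 2.22-fold and 2.08-fold higher. Fasl, Tnfsf10, the gene of TRAIL (-0.85), and Tnfrsf18, the gene of GITR (-0.75), were lower, and so was Tnfsf4, OX40 ligand (-0.79), whose call was lost without any of 3 wild-type arrays. Both death ligands were thus lower in Th17 cells. Of 24 integrin and adhesion genes, 5 were called higher and 3 lower (33.3%, against 14.0% of all autosomal genes at 7.64 to 8.28 log2 units). Itga6 read 9.21 and 8.99 in Th17 and 7.65 and 7.47 in Th1 cells, 2.91-fold higher. Cd69, a retention receptor, was 2.23-fold higher. Itgav and Icam1 (-0.75) were among the lower, and Icam1 did not pass without Th17 replicate 1. Without Th17 replicate 2, 3 members were called higher and 2 lower.

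Genes used to tell pathogenic from other Th17 cells changed in both directions. Of 15 listed with pathogenic Th17 cells, 3 were called higher in Th17 cells, Il23r, Ccl20 and Icos, and 8 lower, with a median of -0.77. The lower ones include Gzmb, Il3, Ccl3, Ccl4, Ccl5, Tbx21 and Lag3, which are also on the Th1 or receptor lists. Of 8 listed with non-pathogenic Th17 cells, 5 were called higher and none lower, namely Maf, Ikzf3, Ahr, Il6st and the dim Il10, and 3 to 4 were called when 1 wild-type array was left out. The comparison is with Th1 cells and holds no Th17 culture of another kind, so it does not rank these Th17 cells by either list. Of 7 aryl hydrocarbon receptor genes, Ahr and its repressor Ahrr (0.84) were called higher, Ahrr at levels under the bound on all 4 arrays and not without Th17 replicate 2, and the others did not pass.

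Genes of metabolism and growth were called in both directions. Of 30 autosomal genes of glycolysis and hypoxia, 8 were called higher and 1 lower (30.0%, against 8.55% of all autosomal genes). This list was bright, averaging 9.12 to 9.40 on the 4 arrays. Of all autosomal genes at 8.28 to 9.11 log2 units 16.1% were called, and of those at 9.11 to 13.7 13.6%. The lists of cholesterol and fatty acid synthesis, ER stress and cell cycle below had 13.8%, 18.2% and 10.0% called. Pfkl, a phosphofructokinase, read 8.90 and 8.91 in Th17 and 7.86 and 8.01 in Th1 cells, 1.96-fold higher, and P4ha1, a prolyl hydroxylase induced by hypoxia, 9.32 and 9.12 against 8.41 and 8.38, 1.78-fold higher. Hk2, a hexokinase, was called lower (-0.47, adjusted p = 0.0451, limma), a call lost in 14 of 24 alternatives. Without Th17 replicate 2, 3 members were called higher and none lower. Of 29 genes of cholesterol and fatty acid synthesis, 3 were called higher and 1 lower, led by Abcg1, a sterol exporter (1.10), and without Th1 replicate 1 only 1 was called, while quantile normalization gave 2 higher and 2 lower. Of 33 genes that respond to ER stress or amino acid shortage, 4 were called higher and 2 lower. Atf3 (-1.52) and Cth (-0.95) were lower and Aldh18a1, an enzyme of proline synthesis (1.03), was higher, and without Th17 replicate 2 the counts were 1 and 2. Of 40 cell cycle genes, 33 had a lower value in Th17 cells but only 3 were called lower, Ccne2 (-0.81), Ccne1 (-0.67) and Ttk (at least 1.33-fold), and each call was lost without Th17 replicate 2. Under quantile normalization 6 were called lower, and the median of the list went from -0.20 to -0.34. Cdkn1b, the inhibitor p27, read 9.26 and 8.95 in Th17 and 8.01 and 8.00 in Th1 cells, 2.15-fold higher.

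Of 34 T cell receptor activation genes, 3 were called higher and 4 lower (20.6%, against 13.6% of all autosomal genes at 9.11 to 13.7 log2 units). The family of Nr4a nuclear receptors split, with Nr4a1 higher by 0.69 and Nr4a3 and Nr4a2 lower by 0.83 and 0.77 on the log2 scale, and Egr1 was higher by 0.75. The calls of Nr4a1, Nr4a2 and Egr1 were lost without Th17 replicate 2, which left 1 higher and 2 lower, and quantile normalization gave 3 higher and 8 lower. Among 20 genes of Tet enzymes, DNA methylation and the Gadd45 family, Gadd45g read 9.21 and 9.10 in Th1 and 7.86 and 8.32 in Th17 cells, 2.09-fold lower, and Gadd45b differed by -0.69, which did not pass without Th17 replicate 2. Both encode stress-induced proteins that promote interferon-γ in Th1 cells. Tet2 read 8.53 and 8.51 in Th17 and 8.14 and 8.03 in Th1 cells (0.44, adjusted p = 0.0366, limma) and 0.28 under the scaling that moved it most. Tet1 was higher by 0.51, at levels under the bound. The Tet2 call was lost in 13 of 24 alternatives, among them each wild-type array left out, quantile and cyclic loess normalization, the replicate block and the 4 wild-type arrays alone. The Tet1 call was lost without either Th17 array or without Th1 replicate 1, and the other Tet1 probesets differed by 0.78 and 0.05.

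Other genes with large differences were mostly outside the lists. Atp6v0d2, a vacuolar ATPase subunit, read 9.72 and 9.81 in Th17 and 6.66 and 6.62 in Th1 cells, at least 7.36-fold higher (3.13, SE 0.12). Adam19, a membrane metalloprotease, was 5.85-fold higher, Cpd, carboxypeptidase D, 4.57-fold and Hipk2, a nuclear kinase, 4.38-fold higher. Ripor2 was 4.39-fold higher, and Neurl3 and the kinase gene Alpk2 were at least 3.74-fold and 2.74-fold higher. Klrb1f, from the list of killer lectin-like receptors, read 7.67 and 7.80 against 5.23 and 5.28 (at least 1.80-fold higher) and was the only 1 of 16 such genes called, of which 14 lay under the bound on all arrays. Emb read 11.0 and 11.1 against 9.07 and 9.01, 3.98-fold higher, and Serpinb1a, Nebl and Txk were at least 1.54-fold, 3.36-fold and 3.29-fold higher. In the other direction, Plxnc1, a semaphorin receptor, was at least 4.61-fold lower in Th17 cells, Penk, the precursor of enkephalins, at least 3.98-fold and Slc17a6, a glutamate transporter, at least 4.03-fold lower. C1ql3 was at least 3.09-fold lower. Zbtb32, a zinc finger repressor, read 10.0 and 10.2 in Th1 and 8.29 and 8.00 in Th17 cells, 3.88-fold lower. Trim30a was spread within Th1 cells (10.8 and 9.81, against 8.10 and 8.77), and Ms4a4b and Ms4a4c, close relatives, were 3.70-fold and 3.69-fold lower.

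Called genes lay next to each other in places. Of 19087 pairs of neighbouring autosomal genes, both members were called in 215, in the same direction in 178 (110 higher, 68 lower) and in opposite directions in 37. Of single autosomal genes 8.55% were called. The pair counts were not set against a number expected from that share, so clustering was not tested. In 14 pairs both differed at least 2-fold the same way, 4 higher and 10 lower. The higher ones were Il17a with Il17f on chromosome 1, the Tec family kinases Txk with Tec (at least 1.46-fold) on chromosome 5, Pecam1 with Milr1 (at least 1.95-fold) on chromosome 11, and Nxpe3 (1.44) with Cep97 (1.46) on chromosome 16. Among the lower were Ccl3 with Ccl4 on chromosome 11, Serpinb6b with Serpinb9 on chromosome 13, Psmb9 with Tap1, the peptide transporter (-1.40), on chromosome 17, Gbp4 with Gbp11 (-1.20) on chromosome 5, and the Ms4a4 genes on chromosome 19. The partners outside the rule for named genes were chosen after their values were seen. Neighbours in the Gbp, Ms4a4 and Ccl families are related in sequence, so shared probes could not be told apart from shared expression.

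T cell genes were bright and markers of most other cell types dim. The 9 autosomal T cell identity genes averaged 10.4 on both Th1 arrays and 10.5 on both Th17 arrays, Cd4 differed by 0.01, and none was called. B cell markers averaged 5.21 to 5.46, NK cell markers 4.71 to 5.02 and myeloid markers 5.89 to 6.05, and the only gene of these lists called was Ly6g (0.82), which did not pass without Th17 replicate 2 or Th1 replicate 1. Among 11 stromal and endothelial genes, Lum, a matrix proteoglycan, read 6.98 and 7.10 in Th17 and 5.12 and 5.41 in Th1 cells (at least 1.12-fold higher), Pecam1 was at least 2.21-fold higher and Sparc lower by 0.75 on the log2 scale, a call lost without replicate 1 of either cell type. The mean level over the members of that list was 6.53 to 6.60 on the Th17 and 6.34 to 6.37 on the Th1 arrays, and its part in any result was not tested. No ribosomal protein gene of 17 and no heat shock gene of 11 was called. B2m was the 1 of 9 autosomal housekeeping genes called (-0.58), a gene also listed with the interferon-γ response, whose call was lost without any of 3 wild-type arrays.

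The same cell type difference could be read in Tet2-/- cells, from 4 other arrays that share with the wild-type comparison the spread estimated by the fit. There 2002 autosomal genes were called (10.5%), 1356 higher and 646 lower in Th17 cells. Of the 1633 genes called in wild-type cells, 1596 had the same sign in Tet2-/- cells, against 74.1% of all autosomal genes, and 1019 were called in the same direction, 62.4% of the wild-type calls and 50.9% of the Tet2-/- calls. Of the 240 genes with at least a 2-fold difference, 225 were called the same way, and the median of the Tet2-/- difference was 92.9% of the wild-type difference. These 240 genes were picked by their size in wild-type cells, which by itself lowers that percentage. It therefore does not show a smaller difference in Tet2-/- cells. Across autosomal genes, which are not independent replicates, the differences correlated at r = 0.811 and rho = 0.678. Ifng differed by -5.68 in wild-type and -4.28 in Tet2-/- cells, Gzmb by -4.84 and -4.66, Il17a by 3.78 and 3.10, Ccl20 by 2.18 and 0.95, and Atp6v0d2 by 3.13 and 4.04. No gene was called for the difference between genotypes (limma, smallest adjusted p = 0.150). Of 19106 autosomal genes, 872 had an unadjusted p under 0.05 for it (limma). A share of 0.05 would pass that level if no gene differed, so this count does not show genes that differ between genotypes. The cell cycle list had a median of -0.20 in wild-type and 0.14 in Tet2-/- cells.

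**Figure D5:**
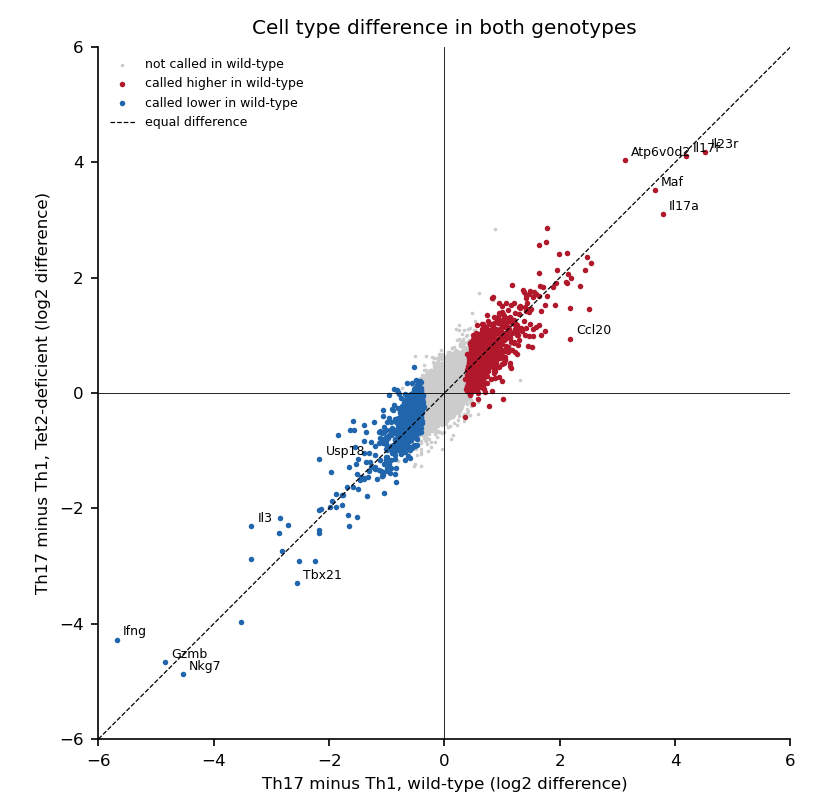
Log2 difference between Th17 and Th1 cells in Tet2-deficient cells (vertical) against that in wild-type cells (horizontal) for 19106 autosomal genes, with the line of equal difference dashed. Of the genes called in wild-type cells (red higher, blue lower), 1596 lie on the same side of 0 in both genotypes and 37 do not.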

How the data were processed

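Total RNA of 8 cultures was measured on Affymetrix arrays, and the deposited table holds log2 values, 1 for each probeset on each array, that the authors computed with the tools RMA and Partek (named in the submitters' processing notes). The sources used here give no versions, filters or log base. Values ran from 2.71 to 14.1, the range of log2 values. Of 35556 probesets, 21789 had 1 gene symbol, 1621 had several and 12146 none listed. The probeset with the highest mean over the 8 arrays stood for each of 999 genes with more than 1, which left 19938 genes, 19106 of them autosomal, with none left out for a low level.

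The linear model held 1 mean for each of the 4 groups and used all 8 arrays (R 4.3.3, limma 3.58.1, lmFit and eBayes with a trend on intensity, 4 residual and 8.44 prior degrees of freedom). The contrast was wild-type Th17 minus wild-type Th1, two-sided, with Benjamini-Hochberg adjustment over 19938 genes. SE is from this fit. Depth does not apply to arrays, and 2 per group limit the precision. In data simulated on this layout for this contrast, with 19938 genes, limma called 23 of 50 genes changed by 0.5 log2 units, 50 of 50 at each of 1, 1.5 and 2, and 10 unchanged genes. The simulated noise was normal, with the moderated spread of this same fit and no outlying array. These counts hold for that setting and do not show how many such changes were missed in the real arrays.

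The members, the 44 gene lists, the tests and the alternatives were chosen with earlier results of these data known, apart from 3 alternatives added after seeing the files. Named were the 15 largest called differences per direction, the autosomal members of 8 core lists, up to 4 called members per direction and list with the smallest p, and 5 called genes per direction outside the lists, with predicted genes and olfactory receptor genes passed over. Same-numbered wild-type arrays deviated from their group means with a correlation of -0.19, so numbers were not taken as pairs.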

Additional observations from a re-analysis of the deposited data

Results flagged for a closer look

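The level of Xist, an X-linked gene outside the genes compared, was 10.1 on Th17 wild-type replicate 2 and 4.83 to 5.20 on the other 3 wild-type arrays. It drew attention as a signal in genes that the comparison does not use. The Y-linked genes averaged 7.82 on that array and 7.97, 8.24 and 8.80 on the others. Without it, 650 autosomal genes were called in place of 1633, and its part in single results was not tested beyond the values given beside them.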

How the results depend on the processing

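Of 158 named genes called in wild-type cells, 109 kept their call in every alternative when the test without moderation is left aside. Of these 109, 28 kept it in that test too, and so in all 24 alternatives. The sign changed in any alternative for 0 of the 158. Without moderation 82 genes were called (48 higher, 34 lower, 47 at least 2-fold) and 161 in Tet2-deficient cells. Cyclic loess and quantile normalization gave 648 and 646 genes called higher in place of 1015, and 618 and 619 lower, close to the 618 as deposited. The share of autosomal genes with the same sign in both genotypes was 74.06% and moved to 72.93% with arrays centred on the autosomal median, 69.29% with cyclic loess, 69.41% with quantile normalization and 73.12% without olfactory receptor genes. With 1 array left out, the counts ran from 650 to 1510 called, 401 to 1001 higher, 249 to 585 lower and 240 to 296 at least 2-fold, those in Tet2-deficient cells from 780 to 2293, and the share from 69.15% to 74.06%; a lone array was then taken to vary like the other groups. With the replicate number as a block, 1366 genes were called (816 higher, 550 lower). With the numbers of the Th1 arrays crossed, chosen after seeing the data, 1728 were called. The other alternatives (4 arrays alone, array weights, a Y-linked covariate, all probesets, their mean, autosomal genes alone, robust moderation, no trend) gave 1126 to 1719 called genes. Signal under the bound leaves the size of a dim gene's difference unknown beyond its at least N-fold limit, and gives no limit where both groups lay under it.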
